A study of Mus musculus with 21 samples.

Results

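Sciatic nerves of newborn mice that lack the peripheral myelin protein Pmp22 were compared with those of wild-type mice at postnatal day 4, on 6 of the 21 arrays of the series. The comparison takes every probe set of the deposited table other than the control spots. It sets the 3 arrays of mice homozygous for the Pmp22 null allele, called KO here, against the 3 arrays of wild-type mice of mixed background, called WT. Each array held RNA of nerves pooled from 4 to 7 mice, amplified in 2 rounds. The labels give no genetic background for the KO mice, so the null allele and any difference in background cannot be told apart. Other groups used for comparison were KO and WT at day 60 (2 and 3 arrays) and, at day 4, 3 arrays each of mice carrying a Pmp22 transgene (TG) and of mice with the Trembler mutation of Pmp22 (TR). The labels name no allele limited to 1 tissue and no treatment.

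Pmp22 is a membrane protein with several membrane-spanning segments in compact myelin, the sheath that Schwann cells wrap around peripheral axons. Loss of the protein, extra copies of its gene and point mutations in it all cause inherited neuropathies, and mice lacking it first form tomacula (focal thickenings of myelin) and later lose myelin. In the first postnatal days Schwann cells stop dividing and start to make sheaths, which takes large amounts of cholesterol and fatty acids that Schwann cells mostly synthesize themselves.

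The values are a model-based expression index, a brightness on a linear scale. Values were raised to a floor of 54.7 before log2 was taken, so changes of dim probe sets are understated. Values tied at the floor also show no spread, which can make the standard error too small. A probe set was called at an adjusted p under 0.05 in limma with Benjamini-Hochberg adjustment over the 10994 probe sets tested. The 6 arrays had medians of 184 to 198 and between 79.4% and 80.4% of probe sets above the floor. No scan day held both WT and KO arrays. WT arrays were scanned on 3 separate days, KO arrays 1 and 2 on 1 day and KO array 3 on another. With scan day as a fixed block, this comparison therefore rests on KO array 3 and WT array 3, linked only through day 60 arrays of TR and WT. Such a fit is not an adjusted form of the comparison of 3 with 3 arrays. Correlations of log2 values were 0.955 to 0.970 between WT arrays, 0.976 to 0.986 between KO arrays and 0.931 to 0.978 between a WT and a KO array, so the ranges overlapped. Mbp, a major protein of compact myelin, had an index of 5531, 5950 and 5545 in WT and 4411, 4964 and 5089 in KO, and this Schwann cell marker was bright on all 6 arrays. In whole nerves, fewer cells of a type and less RNA per cell cannot be told apart.

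Of the 10994 probe sets, 39 were called (0.355% of those tested), 14 higher in KO (0.127%) and 25 lower (0.227%), and 1178 (10.7%) passed an unadjusted p under 0.05. The call needed all 21 arrays to share 1 estimate of spread: a fit on the 6 arrays alone called 10. Leaving out 1 array gave 25, 16 and 23 calls without WT array 1, 2 or 3, and 13, 17 and 47 without KO array 1, 2 or 3. Without KO array 3, 31 of the 47 were higher, so the majority turned. In none of the 39 called probe sets did the KO and WT arrays overlap, which also held for 19.8% of all probe sets tested. In 20 of the 39 at least 1 of the 6 arrays was at the floor, with all KO arrays there in 5 and all WT arrays in 4. 31 of the 39 carried a single gene symbol, for 30 genes, and 10 of the 39 stayed called whichever of the 6 arrays was left out. Among the genes described here these were AI506816, Adk, Serpinc1, Snhg6 and Hsd17b7, and each other called gene described lost its call without at least 1 array. Elovl6, Cdc45, Mvk and Rhd lost the call whichever of the 6 arrays was left out. Ccnd1, Aldoc, Mme, Prdx2, Rnf166, Dtymk, Cdc25c, E2f8, Mea1, Papola and Zfp982 kept it in only 1 of these 6 fits. With scan day as a fixed block, 1 of the 39 stayed called.

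The 2 probe sets of the targeted gene both had lower values in KO without passing the threshold. The brighter read 6840, 7682 and 7093 in WT and 4839, 5424 and 5129 in KO, a log2 change of -0.49 ± 0.11 (SE) with an adjusted p of 0.061 in limma. KO arrays lay below WT arrays without overlap and kept most of the signal. The dimmer read 97.4, 106 and 104 in WT and 38.0, 40.2 and 38.6 in KO, below the floor on every KO array (-0.90 ± 0.20, adjusted p 0.065 in limma). The position of the probes relative to the deleted part of the gene is not known here, so neither probe set tests whether the allele is null.

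**Figure D1:**
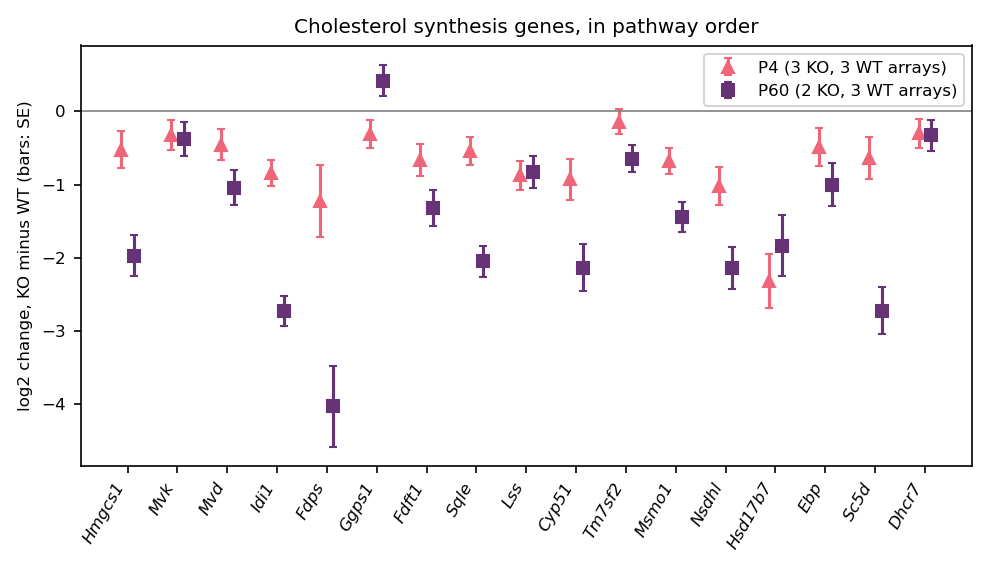
Log2 change of KO against WT with standard errors for the 17 measured cholesterol synthesis genes in pathway order, at day 4 (triangles, 3 KO and 3 WT arrays) and day 60 (squares, 2 KO and 3 WT arrays). All 17 day 4 values lie below 0, with Hsd17b7 lowest at -2.31, and 16 of the 17 day 60 values lie below 0.

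Cholesterol synthesis genes had lower values in KO at day 4 throughout the pathway. All 17 measured of 21 listed genes had a log2 change below 0, against 42.1% of all 7703 genes, each gene taken by its brightest probe set. With scan day as a fixed block, 3 of the 17 turned above 0, Fdps (0.069), Cyp51 (0.43) and Mvk (0.0092). That fit rests on KO array 3 and WT array 3, linked through day 60 arrays. The median change was -0.64, beside 0.04 for all genes. In 11 of 17 genes every KO array was below every WT array, against 6.84% of all genes. Only Hsd17b7, which reduces the 3-keto group of a sterol intermediate, passed the test among brightest probe sets, where 0.182% of genes fell. At an unadjusted p under 0.05, 11 of the 17 were lower, against 3.44% of all genes. Summed over the 17 genes, the index was 21667, 20358 and 21508 in WT and 11516, 14716 and 12050 in KO, and the groups did not overlap.

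Hsd17b7 read 508, 302 and 285 in WT and 79.8, 68.9 and 64.7 in KO. Every KO array was below the dimmest WT array, and the log2 change was -2.31 ± 0.37 (a 4.97-fold decrease, adjusted p 0.0098 in limma). The call remained whichever of the 6 arrays was left out. With scan day as a fixed block the change was -1.20 and did not pass. Sequences before the start of Hsd17b7 and of 3 further enzymes of the pathway are shown because all 14 measured pathway genes with a promoter in the RefSeq tables hold the motif marked in them. The capitals mark CCAAT on either strand, the core of the box bound by NF-Y, a factor known to act with the sterol-responsive factors at such genes, and in Hsd17b7 also CACGTG. The stretches are the 250 bases before the annotated start, read 5′ to 3′ on the gene's strand from RefSeq sequence of GRCm38.p6: Hsd17b7 at chr1:169969206-169969455 on the minus strand, and on the plus strand Mvk at chr5:114444019-114444268, Idi1 at chr13:8885356-8885605 and Nsdhl at chrX:72918271-72918520.
Hsd17b7: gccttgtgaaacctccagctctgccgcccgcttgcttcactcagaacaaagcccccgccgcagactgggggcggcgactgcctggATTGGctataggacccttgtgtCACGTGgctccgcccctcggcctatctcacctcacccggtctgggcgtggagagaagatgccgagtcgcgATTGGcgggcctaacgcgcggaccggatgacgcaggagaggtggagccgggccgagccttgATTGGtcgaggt
Mvk: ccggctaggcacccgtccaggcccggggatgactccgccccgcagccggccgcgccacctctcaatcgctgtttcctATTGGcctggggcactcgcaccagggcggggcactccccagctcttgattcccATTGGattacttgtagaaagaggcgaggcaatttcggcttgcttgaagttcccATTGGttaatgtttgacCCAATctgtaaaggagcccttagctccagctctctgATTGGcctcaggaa
Idi1: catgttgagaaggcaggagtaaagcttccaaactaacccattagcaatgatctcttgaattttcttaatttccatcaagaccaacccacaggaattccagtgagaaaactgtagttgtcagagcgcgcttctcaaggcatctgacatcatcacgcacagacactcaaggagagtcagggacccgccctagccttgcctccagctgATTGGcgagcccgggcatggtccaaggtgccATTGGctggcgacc
Nsdhl: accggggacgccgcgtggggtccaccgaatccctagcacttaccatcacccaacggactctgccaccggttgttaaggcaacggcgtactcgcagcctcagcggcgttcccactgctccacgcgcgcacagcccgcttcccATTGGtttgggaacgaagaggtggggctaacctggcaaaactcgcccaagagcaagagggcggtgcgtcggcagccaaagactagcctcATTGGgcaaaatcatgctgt
These stretches hold 3, 5, 2 and 2 matches of CCAAT. Among the 6154 tested genes with a promoter in the tables, 40.2% hold CCAAT on either strand in this window (33.8% of all 32851 promoters). CACGTG, which reads the same on both strands, was found in 3 of the 14 pathway genes (Hsd17b7, Sc5d and Dhcr7) and in 10.1% of tested genes. TCACNCCAC, the letters of a sterol response element, was found on either strand in 1 of the 14, Hmgcs1, and in 1.51% of tested genes. Of the 2 other lists looked at after their values were seen, CCAAT was held by 21 of 25 mitosis genes and 17 of 27 DNA replication genes. No 2 matches overlap in the printed stretches.

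Among the early steps of the pathway, Idi1, which interconverts the isoprenoid building blocks, read 3891, 3553 and 3741 in WT and 1886, 2399 and 1996 in KO (-0.84 ± 0.18, adjusted p 0.051 in limma). The KO arrays were all below the WT arrays, yet the probe set just missed the threshold. Fdps, which joins those units into farnesyl diphosphate, read 2407, 3139 and 3074 in WT against 1257, 1565 and 931 in KO (-1.22 ± 0.49, adjusted p 0.40). Hmgcs1, which makes the HMG-CoA that starts the mevalonate route, read 3604, 3466 and 3690 against 2159, 3078 and 2319 (-0.53 ± 0.25, adjusted p 0.48).

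Mvk, mevalonate kinase, has 2 probe sets for which the platform gives the same source sequence, and they disagreed in size. The one with the suffix _f_at read 287, 304 and 493 in WT and 110, 147 and 142 in KO and fell by 1.41 on the log2 scale (adjusted p 0.047 in limma). The one with the suffix _r_at read 243, 320 and 226 against 182, 260 and 188, with overlapping groups (-0.33 ± 0.21, adjusted p 0.58). The suffix _f_at marks a probe set that can also take signal from related transcripts. Probe sets of Fdps, Ggps1, Sc5d and Zfp982 described here carry it too.

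The later steps gave changes of similar size. Nsdhl, which removes a carboxyl group from sterol intermediates, read 700, 684 and 783 in WT and 318, 433 and 324 in KO (-1.02 ± 0.26, adjusted p 0.12 in limma). Cyp51, the sterol 14-demethylase, read 1967, 921 and 1344 against 634, 810 and 685 (-0.93 ± 0.28, adjusted p 0.24). Lss, which closes the sterol rings, read 797, 512 and 443 against 324, 320 and 283 (-0.87 ± 0.19, adjusted p 0.061). Tm7sf2 (-0.14 ± 0.17), Dhcr7 (-0.30 ± 0.19) and Ggps1 (-0.31 ± 0.19), of which Ggps1 makes a branch product rather than sterol, lay nearest to 0. Among 11 tested genes of sterol regulation, uptake and efflux none passed in limma, 2 were higher at an unadjusted p under 0.05 (7% of all genes), and the median was 0.00. Apoe, a carrier of cholesterol, read 1353, 4205 and 2441 in WT and 5263, 5719 and 5197 in KO (1.16 ± 0.39, adjusted p 0.29).

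Genes that make and desaturate fatty acids included 1 that fell among 12 measured of 18 listed, as did 0.182% of all genes. Of the 12, 8 lay below 0, against 42.1% of all genes, with a median of -0.21. Scd1, a desaturase that makes monounsaturated fatty acids, read 4711, 4971 and 4555 in WT and 2660, 2856 and 2647 in KO. The arrays of each group were close together and did not overlap (-0.80 ± 0.13, a 1.74-fold decrease, adjusted p 0.013 in limma). The call was lost without 2 of the 6 arrays, left out one at a time. Its 2 other probe sets changed by -0.72 and -0.65, with no overlap between groups and without passing (adjusted p 0.27 and 0.54). Elovl6, which elongates saturated fatty acids, fell on the dimmer of its probe sets, from 2013, 2129 and 2363 in WT to 942, 1034 and 680 in KO (-1.31, adjusted p 0.047 in limma). Its brighter probe set changed by -0.81 ± 0.18 (adjusted p 0.058), with no overlap between groups. Fasn, the fatty acid synthase, read 1555, 1801 and 1894 against 1034, 1169 and 1089 (-0.67, adjusted p 0.25).

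None of the 8 measured of 17 listed myelin protein genes passed in limma, 2 were lower at an unadjusted p under 0.05 (3.44% of all genes), and their median was -0.32. Mbp changed by -0.24 ± 0.12 (adjusted p 0.48) and Emp2, a relative of Pmp22, by -1.33 ± 0.44 (adjusted p 0.28). Of the 4 tested genes of the Pmp22 family, Emp2 alone was lower in KO and 3 were higher. Their median was 0.30. Among 19 transcription regulators of Schwann cells, 1 rose, as did 0.0779% of all genes. Id2, an inhibitor of helix-loop-helix factors that falls as myelination proceeds, read 1765, 1599.5 and 2178 in WT and 3275, 3345 and 3284 in KO (0.85 ± 0.14, a 1.80-fold increase, adjusted p 0.013 in limma). All 3 KO arrays lay within a narrow band above the WT arrays. With scan day as a fixed block the change of Id2 was 0.15 and did not pass. Egr2, which drives myelination, changed by 0.23 and Sox10, which Schwann cells need throughout, by 0.13, and neither passed. Both were chosen for their roles after their values were seen.

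**Figure D2:**
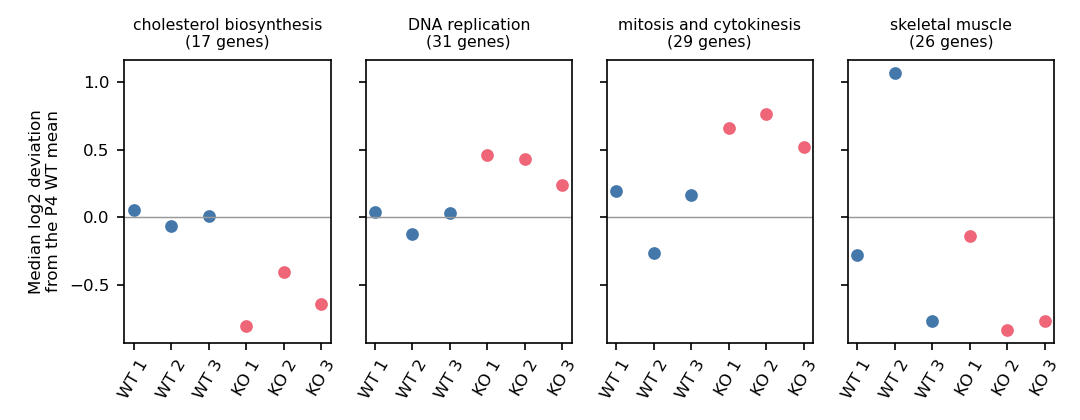
Median over each list of the log2 index minus the WT mean of each gene, for each of the 6 arrays at day 4 (WT blue, KO red; the number of genes is in the title). All KO arrays lie below WT for cholesterol synthesis, above WT for DNA replication and mitosis, and WT array 2 stands high for skeletal muscle.

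Genes of the cell cycle had higher values in KO. Ccnd1, cyclin D1 of the G1 phase, read 2161, 1280 and 1937 in WT and 3279, 3223 and 3736 in KO, and rose by 0.96 ± 0.20 (adjusted p 0.047 in limma). A second, dimmer probe set of Ccnd1 read 470, 581 and 425 against 504, 478 and 474, overlapping and near 0 (-0.01). Cdc45, needed to start replication forks, rose from 63.0, 48.2 and 65.8 to between 97.6 and 112 (0.76 ± 0.16, adjusted p 0.047 in limma), with 1 WT array at the floor. In the DNA replication list, Cdc45 was the only 1 of 31 measured of 36 to pass, beside 0.0779% of all genes that rose. 27 of the 31 lay above 0, against 55.2% of all genes, with a median of 0.37.

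All 29 measured of 33 listed mitosis and cytokinesis genes lay above 0, with a median change of 0.60, and in 21 of them every KO array was above every WT array, against 13.4% of all genes. None of the 29 passed in limma, and 17 were higher at an unadjusted p under 0.05, against 7% of all genes. Kif11, a spindle motor, read 211, 95.2 and 111 in WT and 377, 326 and 251 in KO (1.26 ± 0.38, adjusted p 0.23 in limma). Kif4, a chromosome motor, read 202, 207 and 219 against 401, 360 and 321 (0.78 ± 0.24, adjusted p 0.25). 3 called dim probe sets belong to further cell cycle genes: Cdc25c, the phosphatase that starts mitosis, Dtymk, which makes a precursor of thymidine triphosphate, and E2f8, a repressor among E2F factors. The called probe sets of Cdc25c and Dtymk were at the floor on all WT arrays, and on these the increases were at least 1.52-fold and 1.5-fold (adjusted p 0.022 for both in limma). The other probe set of Dtymk, brighter, read 315, 272 and 248 in WT and 342, 326 and 243 in KO, and the groups overlapped (0.12, adjusted p 0.91). The other of Cdc25c read 162, 112 and 152 against 311, 305 and 201, with no overlap (0.93, adjusted p 0.098), and the other of E2f8 changed by 0.76 with overlap (adjusted p 0.48). Cdk4, the kinase partner of cyclin D1, changed by 0.57 without passing.

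Transcripts of skeletal muscle, a tissue that lies around the nerve, varied between arrays of the same group. The summed index over the 26 listed skeletal muscle genes was 10843, 25969 and 8142 in WT and 11662, 5741 and 7463 in KO, so WT array 2 stood above all others and the other 2 WT arrays overlapped the KO arrays. The list's median was -0.65, with 23 of 26 genes lower and none called in limma, also at an unadjusted p under 0.05, and 1 of the 26 was below the floor on all 6 arrays. Without WT array 2 it was -0.07, while the mitosis median was 0.51, that of DNA replication 0.29 and that of cholesterol synthesis -0.71. Actn3, a fast muscle actinin, read 196, 796 and 108 in WT and 216, 23.6 and 54.6 in KO, and its groups overlapped. Medians of the other cell type lists, apart from the myelin proteins (-0.32), were between -0.26 for endothelium and 0.11 for fibroblasts and perineurium. Of these lists, erythroid and blood held 1 called gene, Rhd, and liver and plasma proteins held 1, Serpinc1, out of 14 and 12 tested, and 0.182% of all genes fell.

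**Figure D3:**
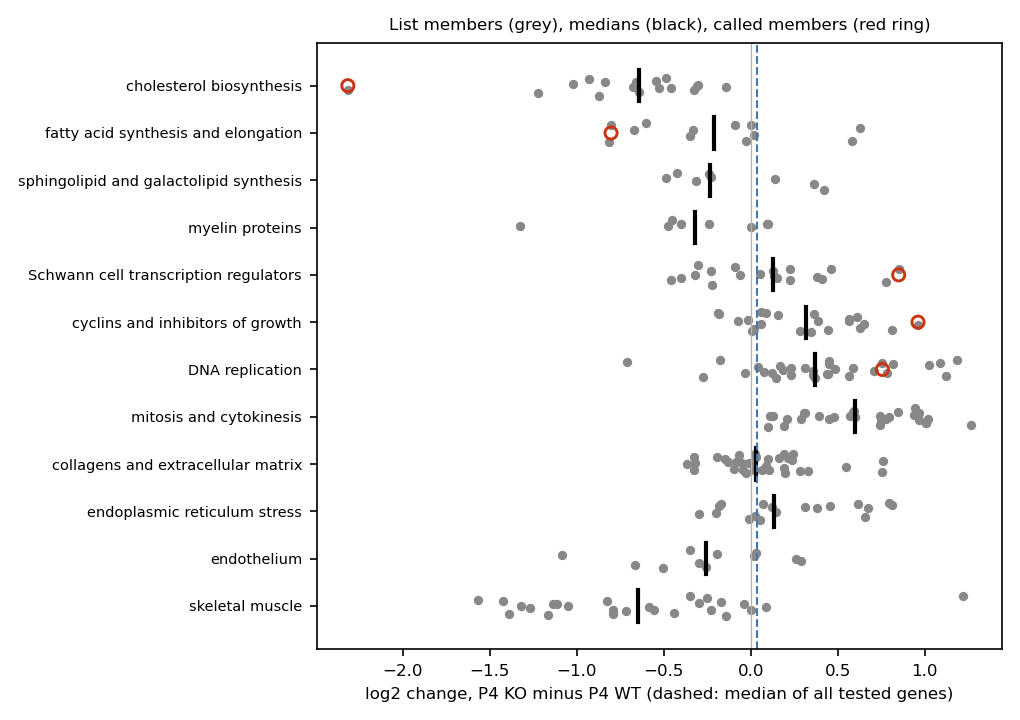
Log2 change of KO against WT at day 4 of each measured gene (grey points) in 12 of the gene lists, with list medians (black bars) and called genes (red rings). The dashed line is the median of all tested genes, 0.04, and the mitosis and cholesterol lists lie on opposite sides of it.

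The largest decreases were those of Snhg6, Serpinc1 and AI506816, on probe sets that KO arrays left at or near the floor. Snhg6, a host gene of small nucleolar RNAs, read 662, 490 and 402 in WT and 58.5, 47.5 and 51.3 in KO (-3.18 ± 0.35, adjusted p 0.00011 in limma). Its other probe set was at or near the floor in all 6 arrays and did not differ (0.06). Serpinc1, antithrombin, a plasma inhibitor of clotting proteases, read 639, 392 and 243 in WT and lay at the floor in every KO array, a decrease of at least 7.19-fold (adjusted p 0.00011 in limma). The transcript AI506816 read 433, 332 and 465 against 43.5, 65.0 and 64.4 (-2.73 ± 0.25, adjusted p 1.65e-05 in limma).

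Pomc, the precursor of several peptide hormones, read 1312, 1932 and 1079 in WT and 480, 695 and 523 in KO (-1.32 ± 0.24, adjusted p 0.021 in limma). Mme, the peptide-cutting membrane protease neprilysin, fell from 222, 207 and 199 to 95.1, 126 and 70.1 (-1.15 ± 0.21, adjusted p 0.022 in limma). Aldoc, an aldolase of glycolysis, fell from 304, 289 and 301 to 132, 115 and 158 (-1.15 ± 0.23, adjusted p 0.039 in limma). Rhd, a blood group protein of red cells, fell by 1.09, while the summed erythroid index was 12053, 7868 and 5408 in WT and 6993, 6476 and 5412 in KO. The part of blood in the change was not tested.

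Several called genes have a further probe set that disagreed in direction or in size. Prdx2, which reduces peroxides, fell on its dimmer probe set from 713, 666 and 1055 to 323, 453 and 226 (-1.31, adjusted p 0.029 in limma), while its brighter probe set read 2911, 3215 and 3833 against 3648, 3603 and 3784. Rfc1, the large subunit of the clamp loader of DNA replication, fell on the probe set with the suffix _s_at from 454, 462 and 733 to 218, 183 and 166 (-1.51, adjusted p 0.013 in limma), while its other probe set read 557, 391 and 605 against 635, 662 and 601. Dnajc3, a chaperone of the endoplasmic reticulum, fell on 2 probe sets of 1 source sequence (-1.14 and -1.08) and not on another, where the change was 0.20. For Adk, adenosine kinase, the called probe set rose by 1.23 ± 0.11 from near the floor. Its 2 others were also higher in KO, by 0.51 and 0.46, with no overlap between groups and without passing. Mea1 fell on its dimmest probe set, and its 2 brighter ones overlapped between groups (0.13 and -0.28). Osbpl9 rose on 1 probe set and overlapped between groups on the other (0.15). Dtymk and Ccnd1, described with the cell cycle genes, and Snhg6 also have a probe set that did not differ beyond the overlap of the arrays.

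**Figure D4:**
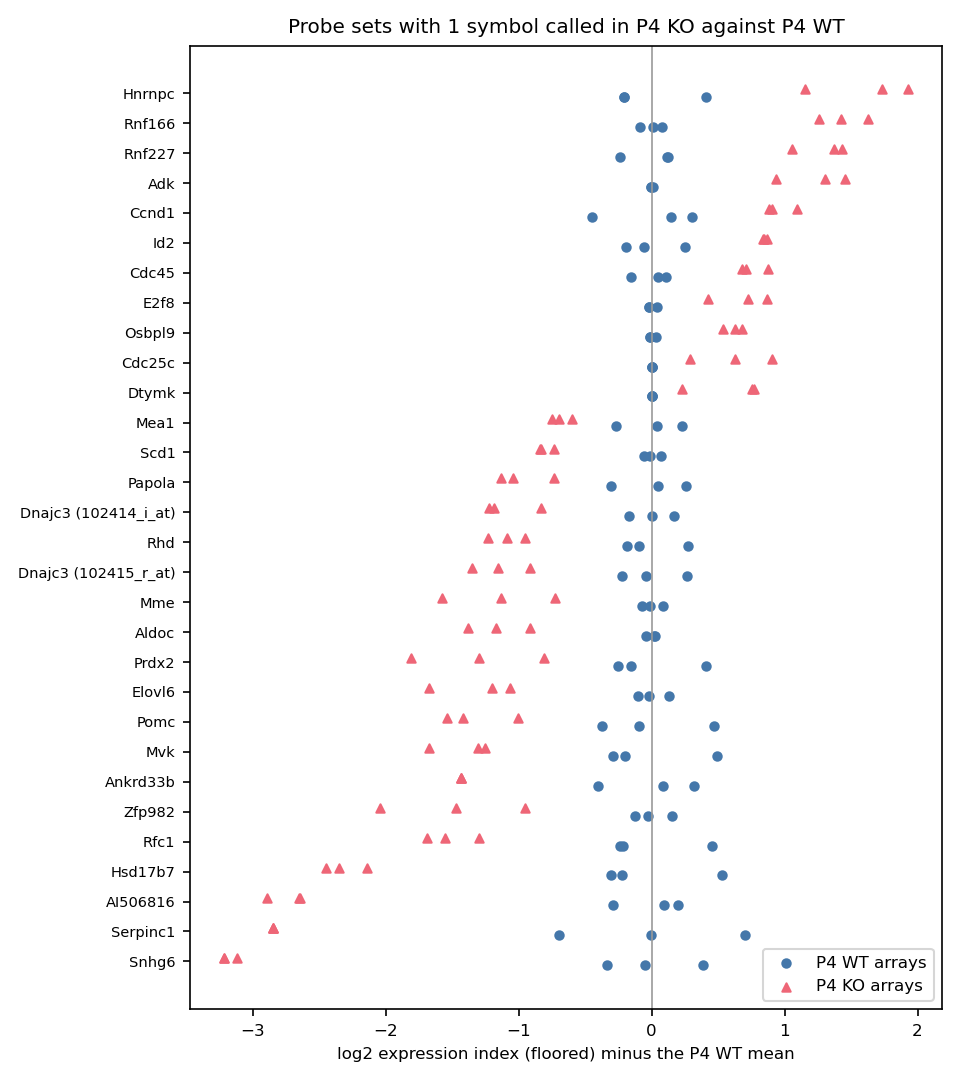
Each called probe set with a single symbol, except one paired with a microRNA gene, with its log2 index minus the WT mean for the 3 WT arrays (circles) and 3 KO arrays (triangles). The groups do not overlap in any row, and Snhg6 and Serpinc1 lie lowest in KO.

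The remaining called increases included Hnrnpc, an RNA-binding protein of the nucleus, which read 83.6, 31.4 and 54.5 in WT and 210, 240 and 141 in KO (1.61 ± 0.28, adjusted p 0.019 in limma), with 2 WT arrays at the floor. Rnf166, a ubiquitin ligase, rose from 143, 127 and 136 to 419, 363 and 324 (1.44 ± 0.26, adjusted p 0.023 in limma). Rnf227 rose by 1.29 and Osbpl9, a lipid transfer protein, by 0.61. The other decreases were Ankrd33b, Zfp982, Papola, a polymerase of poly(A) tails, and Mea1, with log2 changes of -1.43, -1.49, -0.97 and -0.68. Ankrd33b was at the floor on all KO arrays, so its decrease was at least 2.69-fold. Of the 30 called genes, 2, Aldoc and Rnf227, lie on the chromosome of Pmp22, as do 8.76% of all tested genes. A probe set paired with a microRNA gene does not measure the mature microRNA, and its value is not given.

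**Figure D5:**
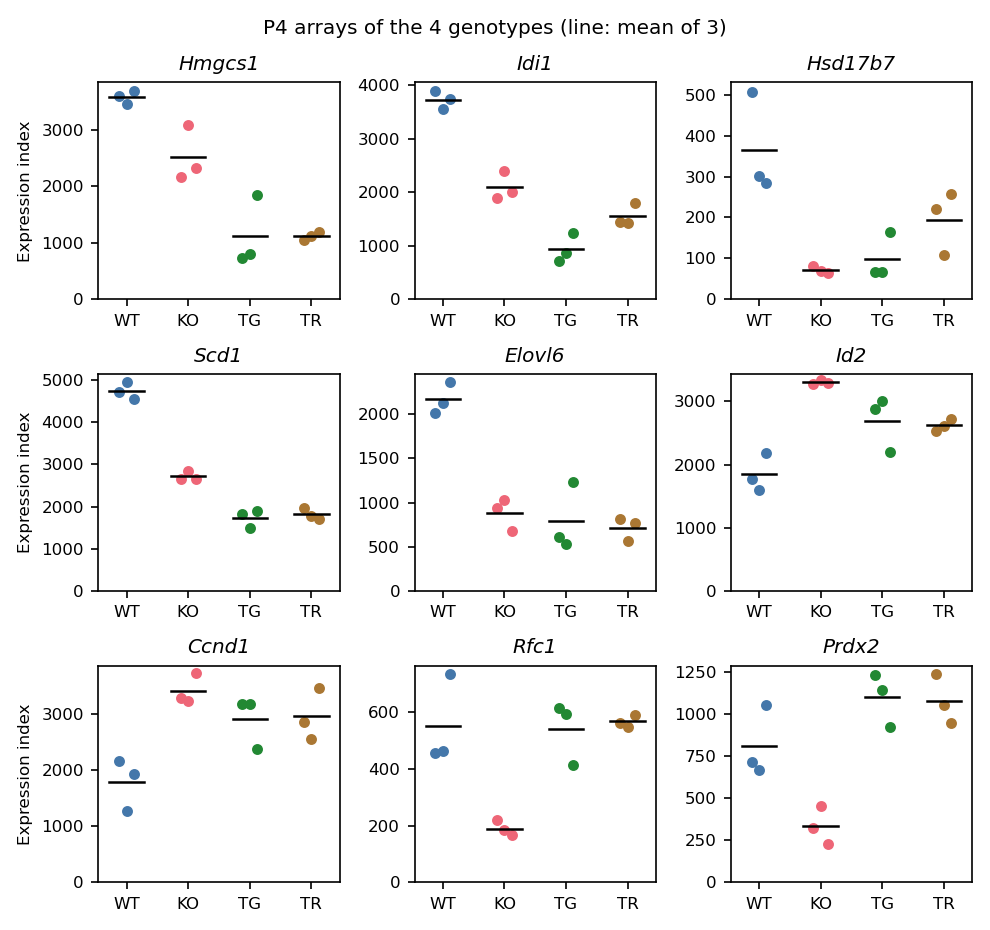
Expression index of 9 genes on each day 4 array of WT, KO, TG and TR mice, with the mean of 3 as a line, each panel on its own axis from 0. KO values of Hmgcs1, Idi1 and Scd1 lie between those of WT and TG. On the called probe sets of Rfc1 and Prdx2, KO values lie below those of all other arrays shown. The other probe sets of Rfc1 and Prdx2 are not shown.

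Set against the other mutants at day 4, KO arrays differed from TG on 46 probe sets (0.418%) and from TR on 45 (0.409%). These comparisons share the KO arrays with the comparison to WT, so the values are given side by side. Idi1 read 709, 866 and 1239 in TG and was higher in KO than TG by 1.19 ± 0.18 (adjusted p 0.0043 in limma), beside a change against WT of -0.84 that did not pass. Hmgcs1 read 723, 801 and 1846 in TG and was higher in KO by 1.28 ± 0.25 (adjusted p 0.033), with a KO to WT change of -0.53. Scd1 read 1835, 1485 and 1889 in TG and was higher in KO by 0.66 ± 0.13 (adjusted p 0.040). On the 4 arrays of KO and TG scanned on 1 day, an alternative chosen after seeing the data, the difference was 1.44 for Idi1 (adjusted p 0.0016) and 1.76 for Hmgcs1 (adjusted p 0.00025), and Scd1 no longer passed (0.74, adjusted p 0.084).

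Hsd17b7 differed in this respect. It read 66.6, 67.2 and 163 in TG and 221, 107 and 257 in TR, and the change of KO was -0.35 ± 0.37 against TG (adjusted p 0.78) and -1.36 ± 0.37 against TR (adjusted p 0.21 in limma), neither of which passed. Over the 17 cholesterol genes, KO was above TG in 13 genes and above TR in 13, with medians of 0.33 and 0.34. Of all genes, 52.2% were above TG and 54% above TR. 2 of the 17 were called against TG, beside 0.156% of all genes, and none against TR in limma, where 5 were higher and 1 lower at an unadjusted p under 0.05 (5.66% and 2.89% of all genes). Id2 was above TG by 0.30 and above TR by 0.33, and Ccnd1 by 0.24 and 0.21, none of which passed.

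Some probe sets were low in KO against every other day 4 group. The change of KO against TG and TR was -3.19 and -2.95 for AI506816, -3.62 and -2.98 for Snhg6, and -1.76 and -1.74 for the dimmer probe set of Prdx2, all called in limma. The called probe set of Rfc1 was also called lower than in both, with a change of -1.59 against TR (adjusted p 0.0061). The called probe set of Adk was higher than in TG by 1.24 and than in TR by 1.23, both called. Among the largest differences from TR were the heat shock genes Hspa1a (-4.31) and Hspa1b (-3.36), which read 71.0 to 95.4 and 334 to 588 on the WT and KO arrays. Against TG, the largest included Ednrb, an endothelin receptor (-1.84, adjusted p 0.0091 in limma), and Ugt8a, which makes galactolipids of myelin (1.56, adjusted p 0.029). TR also had more of the interferon-induced chemokine Cxcl10 than KO (-1.32, adjusted p 0.0002 in limma).

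At day 60, KO against WT called 1568 probe sets (14.3%). The changes come from day 60 arrays alone, but the spread behind the test is shared with all 21 arrays, day 4 included, and a fit on the 5 compared arrays called 5. Of the 39 called at day 4, 17 were also called at day 60 with the same sign, 43.6% of the day 4 list and 1.08% of the day 60 list, and 2, Osbpl9 and Papola, with the opposite sign. Without KO array 2 of day 60 the first number was 12, and the day 60 count was 181. Hsd17b7 fell at both ages (-1.84 at day 60), as did Pomc (-1.49), though without KO array 2 of day 60 neither passed there (adjusted p 0.10 and 0.054). So did Aldoc (-1.94), Snhg6 (-2.20) and Serpinc1 (-2.07), and Id2 and Ccnd1 rose at both (2.11 for Id2 at day 60). In the fit that blocks on scan day, 5 calls were made at day 60, none of them in these genes.

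The test of age itself called 845 probe sets (7.69%), and 18 of the 39 were among them. Id2 read 239 to 278 in WT and 1140 and 1031 in KO at day 60, and its increase was larger there than at day 4 by 1.26 ± 0.21 (adjusted p 0.0074 in limma). Without KO array 2 of day 60 the difference was 1.33. In the fit that blocks on scan day it was 2.00 (adjusted p 0.044 in limma). The day 4 increase of Id2 in that fit was 0.15 and did not pass. Idi1 read 2381 to 2574 in WT and 375 and 372 in KO at day 60, and the day 60 change minus the day 4 change was -1.89 (adjusted p 0.0030 in limma), which did not pass with scan day as a fixed block (0.091). Of the 17 cholesterol genes, 14 fell at day 60 (median -1.44), beside 12% of all genes, and 5 had a larger decrease than at day 4 by the test, beside 7.09% of all genes with a lower value in that test. Without KO array 2 of day 60, Idi1 alone of the 5 still passed it. Scd1 changed by -0.25 at day 60 (adjusted p 0.30) on the probe set called at day 4, while its other bright probe set fell there by 0.89 (adjusted p 0.030 in limma), and neither passed the test of age.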

How the data were processed

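Per the labels' protocols, total RNA of pooled sciatic nerves underwent in vitro transcription 2 times, the second with biotin, and was hybridised to Affymetrix arrays. The authors normalized the scans in dChip by smoothing spline. The deposited values are the model-based expression index of each probe set, an intensity on a linear scale, with probe sensitivities estimated from 27 arrays (18 for 1 of the day 60 WT arrays). The dChip version is not given in the sources used here.

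Groups came from the labels, and each pool is a replicate. A p-value therefore reflects variation among pools and arrays. Index values under 54.7, the 20th percentile of the table, were set to it, and log2 was taken. Probe sets above it on at least 2 arrays were tested, 10994 of 12422. The fit used limma 3.58.1 (R 4.3.3) with a mean for each of 8 groups over 21 arrays, a trended eBayes and 13 residual degrees of freedom, and adjusted p-values by Benjamini-Hochberg over all tested probe sets at 0.05. Errors after ± are standard errors of log2 changes. On data simulated for this comparison, 11.9%, 67.2% and 98.5% of changes of 0.5, 1 and 2 on the log2 scale were called. Of 125 calls over 10994 probe sets, 7 were false. The simulated noise was independent between arrays and held no scan day effect, so these rates do not cover differences between scan days.

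The platform annotation gave 1 symbol for 10833 probe sets, several for 396 and none for 1193, and 10817 matched RefSeq. The 27 gene lists hold 538 genes, of which 425 were tested. Named were Pmp22, all called probe sets with 1 symbol, all measured cholesterol genes, up to 3 genes with the smallest p in each other list, and the 3 largest called changes each way in the other tests. The members and lists were chosen with earlier results of these data known. Array numbers did not pair: deviations of same-numbered KO and WT arrays correlated at 0.09, -0.35 and 0.21. Alternatives tried were the floor, the filter, the scaling, the samples in the fit, array weights, the trend, a scan day block, a replicate block and leaving out each array.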

Additional observations from a re-analysis of the deposited data

Results flagged for a closer look

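In limma, the KO effect differed between day 60 and day 4 for 25 of the probe sets chosen by the naming rule above. It also differed for the brighter probe set of Prdx2, which that rule did not choose (-1.67, adjusted p 0.025 in limma). The difference is given as the day 60 log2 change minus the day 4 change. Among genes called at day 4, it was 1.26 for Id2, 2.16 for 1 probe set of Rfc1, 2.10 for Papola, and 1.53 and 1.54 for the 2 called probe sets of Dnajc3. It was -0.70 for 1 probe set of Adk, -1.29 for Rnf227, -1.53 for Osbpl9, -1.58 for Hnrnpc, -1.53 for Ankrd33b and -1.79 for Rnf166. For the called probe sets of the cell cycle genes Dtymk, E2f8 and Cdc25c it was -0.58, -0.67 and -0.61. These 3 and the probe set of Rnf227 were at the floor on every day 60 KO and WT array, so their difference is the day 4 change alone. The other probe sets of Dtymk, E2f8 and Cdc25c did not pass the test of age (-0.72, -0.03 and -0.93). That of Cdc25c was also at the floor on every day 60 KO and WT array, so its difference is again the day 4 change alone. Among cholesterol synthesis genes it was -1.44 for Hmgcs1, -1.89 for Idi1, -2.80 for Fdps, -1.51 for Sqle and -2.08 for Sc5d. The largest differences that passed among probe sets with a single symbol were -3.36 for Pvalb, -3.34 for Serpinf1 and -3.27 for Gsn, and 3.24 for Akap9, 3.05 for Pou3f1 and 2.68 for Ddx6. Without KO array 2 of day 60, Ankrd33b, Id2, Idi1, Osbpl9, Papola, Pou3f1 and Pvalb still passed. With scan day as a fixed block, Id2 alone of the 25 did, and its day 4 change in that fit was 0.15.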

How the results depend on the processing

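The count of probe sets called in KO against WT at day 4 was 39, and other floors, filters, scalings, an eBayes without trend and the replicate block gave 29 to 54. It was 10 on the compared arrays alone, 13 on the day 4 arrays, 6 with scan day as a fixed block, 17 with it as a random block (correlation 0.40) and 559 with array weights, and 13 to 47 when each array was left out in turn. Array numbers did not pair the samples, and the replicate block gave 38 calls, 30 of them among the 39. The genes called also changed. Of the 31 called probe sets with 1 symbol, 12 lost the call with the floor at the 10th percentile and 6 at the 30th. No filter and an eBayes without trend each cost 8 of the 31, while median and quantile scaling kept all 31. With scan day as a fixed block, the change against WT reversed for the _r_at probe set of Mvk (0.0092), Fdps (0.069) and Cyp51 (0.43). Against TR it reversed for 1 probe set of Dnajc3 (0.21). The cause was not tested. Against WT at day 4, that fit rests on KO array 3 and WT array 3, linked through day 60 arrays. KO against WT at day 60 called 1568, 5 on the compared arrays, 5 with scan day as a fixed block and 181 to 2305 with 1 array left out. The test of age called 845, 488 on the compared arrays, 509 with the replicate block, 12 with scan day as a fixed block and 39 to 1854 with 1 array left out. KO against TG called 46, 7 on the compared arrays, 77 with scan day as a fixed block and 19 to 78 with 1 array left out. KO against TR called 45, 6 on the compared arrays, 6 with scan day as a fixed block and 20 to 164 with 1 array left out. The cholesterol median stayed between -0.73 and -0.47 and the mitosis median between 0.51 and 0.98 over all settings run. The values of -0.47 and 0.98 came from the fit with scan day as a fixed block. With 3 pools a group, the simulated data, which held no scan day effect and no floor, recovered 11.9% of changes of 0.5, so small changes could be missed.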
